A study of Mus musculus with 14 samples.

Results

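Insulin-like growth factors (IGFs) and their binding proteins were examined as 10 genes in all: the ligands Igf1 and Igf2, the receptors Igf1r and Igf2r, and the binding proteins Igfbp2, Igfbp3, Igfbp4, Igfbp5, Igfbp6 and Igfbp7. They were chosen by name, as the IGF ligands, receptors and binding proteins, out of 21853 genes in the expression table, and all 10 passed the filter on low values in both tissues. RNA-seq had been performed on the ovaries and uteruses of 28-week-old C57BL/6J female mice. The OT group (n = 4) was given the pooled medium of cultured human amnion mesenchymal stem cells from 3 donors (AMSC-CM) in 6 tail vein injections of 1 µL/g body weight 4 days apart. The OC group (n = 3) had received saline on the same schedule. Both groups had been primed with PMSG and then hCG (10 IU each, 48 h apart), gonadotropins that also drive follicle growth and ovulation. Each mouse label gave 1 ovary and 1 uterus library, 14 libraries in total, and the libraries were depleted of rRNA and strand specific.

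IGF1 and IGF2 are small secreted proteins that signal through the receptor tyrosine kinase IGF1R to promote growth, survival and steroid production, whereas IGF2R binds IGF2 and carries it to lysosomes. The binding proteins hold IGFs in the circulation and in the extracellular matrix, and proteases such as PAPP-A release them. In the ovary this system acts with FSH on granulosa cells, and in the uterus stromal IGF1 relays the growth response to estrogen. IGFBP7 is related to the other binding proteins but binds IGFs only weakly.

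Expression was given as FPKM (fragments per transcript length and library size), which is scaled for transcript length, so levels of different genes can be set side by side. The depth of each library was unknown from these values. In whole tissue fewer cells of a type and less RNA per cell cannot be told apart. Summed FPKM of 8 luteal markers was 5789 to 7280.1 in the ovaries and 41.4 to 62.5 in the uteruses, and that of 10 uterine markers was 398 to 845 in the uteruses and 103 to 266 in the ovaries. Hoxa10, a patterning gene of the female tract, was detected at 0.572 to 53.4 FPKM in the ovary libraries. Adipocyte markers and markers of stratified epithelium differed between the OC and OT uteruses, and their values are given beside the results below.

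Promoter windows of the 4 genes that differed between uterus and ovary by the cutoffs below are shown for context, since Igf1, Igfbp3 and Igfbp6 were higher in the uterus and Igfbp2 was higher in the ovary. Windows for 10 of the 10 genes were found in RefSeq (GRCm38.p6), each from 250 bases before to 50 bases after the annotated start. Igf1 lies on the + strand of chromosome 10 (window chr10:87860861-87861160), Igfbp2 on the + strand of chromosome 1 (first of 2 starts, chr1:72824230-72824529), Igfbp3 on the - strand of chromosome 11 (chr11:7213874-7214173) and Igfbp6 on the + strand of chromosome 15 (chr15:102143936-102144235). Capitals mark 3 short motifs on either strand, which are the GC box written as GGGCGG, the CCAAT box written as its name, and the TATA box written as TATAAA, and no match overlapped another in these 4 windows.
Igf1: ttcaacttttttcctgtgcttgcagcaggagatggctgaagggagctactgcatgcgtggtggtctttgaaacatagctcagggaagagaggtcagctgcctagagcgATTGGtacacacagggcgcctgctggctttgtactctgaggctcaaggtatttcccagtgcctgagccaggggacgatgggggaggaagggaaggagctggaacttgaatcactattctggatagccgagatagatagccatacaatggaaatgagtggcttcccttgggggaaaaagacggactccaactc
Igfbp2: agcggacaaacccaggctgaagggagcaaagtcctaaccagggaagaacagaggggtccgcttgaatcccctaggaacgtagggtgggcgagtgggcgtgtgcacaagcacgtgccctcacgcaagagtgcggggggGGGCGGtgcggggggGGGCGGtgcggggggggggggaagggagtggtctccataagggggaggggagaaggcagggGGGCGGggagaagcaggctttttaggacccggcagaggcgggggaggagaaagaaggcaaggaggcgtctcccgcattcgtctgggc
Igfbp3: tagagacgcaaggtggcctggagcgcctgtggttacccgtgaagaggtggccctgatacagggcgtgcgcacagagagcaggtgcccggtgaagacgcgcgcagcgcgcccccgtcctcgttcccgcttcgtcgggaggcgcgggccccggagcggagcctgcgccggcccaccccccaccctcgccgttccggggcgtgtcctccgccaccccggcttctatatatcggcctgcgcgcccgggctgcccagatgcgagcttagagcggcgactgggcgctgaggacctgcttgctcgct
Igfbp6: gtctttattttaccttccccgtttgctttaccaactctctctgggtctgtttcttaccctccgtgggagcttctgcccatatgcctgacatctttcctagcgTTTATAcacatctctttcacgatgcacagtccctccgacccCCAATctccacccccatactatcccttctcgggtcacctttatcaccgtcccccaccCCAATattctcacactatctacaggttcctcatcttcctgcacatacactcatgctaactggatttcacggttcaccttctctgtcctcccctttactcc
The Igfbp2 window held 3 matches to GGGCGG, the Igf1 window 1 match to CCAAT, the Igfbp6 window 2 matches to CCAAT and 1 to TATAAA, and the Igfbp3 window none. The TATAAA match of Igfbp6 was on the other strand (TTTATA). Exact strings were counted at any position, so neither a match nor its absence shows whether a working box is present. Among 32851 windows of this length, 35.7% held GGGCGG, 37.4% CCAAT and 13.6% TATAAA. GC content was 67.0% for Igfbp2 and 71.7% for Igfbp3, against 52.3% for Igf1, 49.7% for Igfbp6 and a median of 52.7% over all windows. These expression data do not bear on which factors bind there.

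Igfbp4, Igfbp5, Igfbp6 and Igfbp7 had the highest mean levels of the 10 genes in both tissues. In the ovary Igfbp7 was highest at 541 ± 27.1 FPKM (SD, n = 7), the 99.5th percentile of the tested genes. Igfbp6 followed at 145 ± 29.9 FPKM, Igfbp4 at 111 ± 15.6 and Igfbp5 at 91.1 ± 11.8, and Igfbp4 overlapped both others of these in its range over libraries. The range of Igfbp5 was separate from that of Igf2r (38.8 ± 2.48 FPKM), which opened a run of genes at similar levels: Igf1 at 34.6 ± 4.94, Igf1r at 31.2 ± 2.71, Igfbp2 at 30.7 ± 5.66 and Igfbp3 at 27.7 ± 6.09 FPKM. Neighbours in this run overlapped, and Igf2 stood alone at the bottom at 2.39 ± 0.514 FPKM.

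In the uterus Igfbp7 (567 ± 58.8 FPKM, n = 7) and Igfbp6 (488 ± 115) overlapped in their ranges and were separate from Igfbp4 (164 ± 15.7). Below them came Igfbp5 (121 ± 36.5 FPKM), Igf1 (97.7 ± 18.0), Igfbp3 (87.5 ± 54.0), Igf2r (39.4 ± 7.28), Igf1r (22.4 ± 7.20), Igfbp2 (9.56 ± 10.5) and Igf2 (3.05 ± 0.909), each overlapping the next. The coefficient of variation over the 7 uteruses was 9.58% for Igfbp4 and 10.4% for Igfbp7, but 61.7% for Igfbp3 and 109.5% for Igfbp2. In the ovary it lay between 5.02% (Igfbp7) and 21.98% (Igfbp3).

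**Figure D1:**
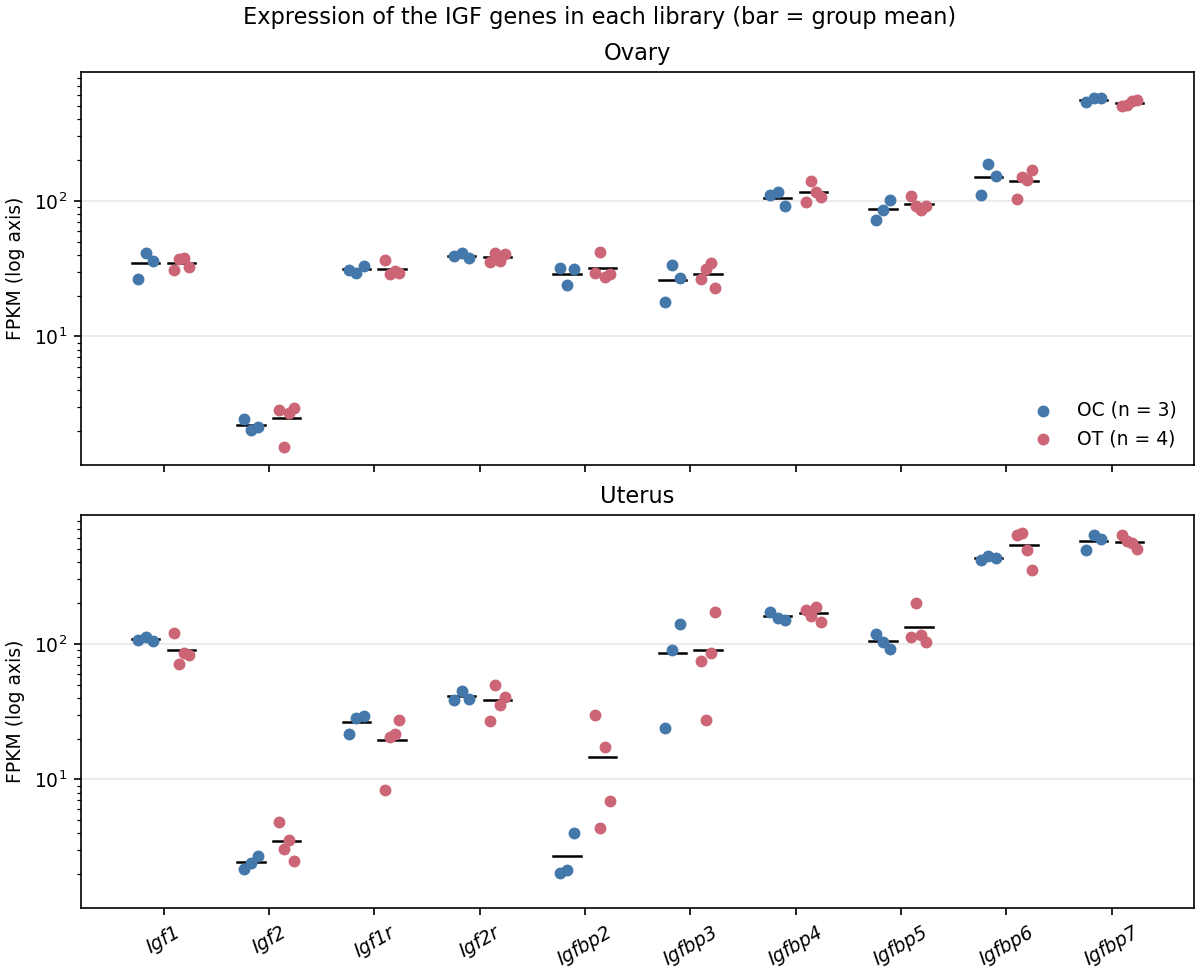
FPKM of the 10 IGF genes (x axis) in each ovary library (upper panel) and uterus library (lower panel) on a log axis, with OC in blue, OT in red and a bar at each group mean. The OT uteruses sit above all OC uteruses only for Igfbp2, and Igf2 is the lowest gene in the ovary at 1.53 to 2.95 FPKM.

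Summed over the 6 binding proteins, expression was 946 ± 53.8 FPKM in the ovaries and 1437 ± 164 FPKM in the uteruses (n = 7 each), and the ranges of 870 to 1014 and 1215 to 1664 FPKM did not overlap. All genes together also came to more FPKM in the uteruses (425875 to 577494, highest in OT1) than in the ovaries (374816 to 397644). The sum of the binding proteins was not scaled to that total. Igfbp7 made up 57.2 ± 2.43% of the sum in the ovary and 39.6 ± 2.91% in the uterus, while Igfbp6 made up 15.2 ± 2.37% and 33.6 ± 4.45%. Igfbp2 was 3.26 ± 0.635% of the sum in the ovary and 0.631 ± 0.634% in the uterus. Igf1 transcripts stood at 3.64 ± 0.368% of the binding protein sum in the ovary and at 6.87 ± 1.44% in the uterus. These shares were not tested. They are ratios of transcript levels and not of proteins.

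**Figure D2:**
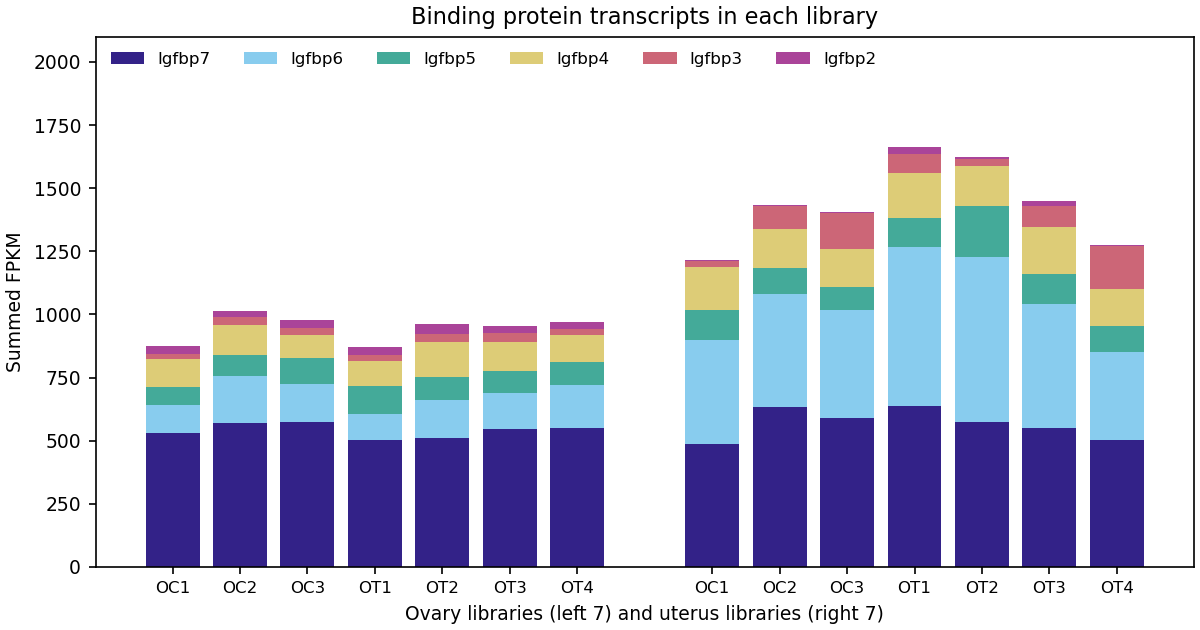
Stacked FPKM of Igfbp2 to Igfbp7 (y axis) in each of the 7 ovary libraries (left) and 7 uterus libraries (right). Each bar of the uterus (1215 to 1664 FPKM) is taller than each bar of the ovary (870 to 1014 FPKM), and the band of Igfbp6 is the one that widens most.

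The uterus and the ovary were compared over all 14 libraries. The main limma fit had no term for the mouse, so the ovary and the uterus of a mouse entered it as independent libraries. By limma, 4 of the 10 genes passed the cutoffs of a 2-fold difference (log2 of at least 1) and a Benjamini-Hochberg adjusted p under 0.05, which 19.6% of all tested genes passed (10% as higher and 9.59% as lower in the uterus). At the adjusted p alone 7 of the 10 passed, against 52.9% of all genes. Igf1, Igfbp3 and Igfbp6 were higher in the uterus and Igfbp2 was higher in the ovary. All 7 mice went the same way for 4 genes (Igf1, Igfbp4 and Igfbp6 up, Igf1r down), as did 40.7% of all tested genes, and the 7 uteruses and 7 ovaries did not overlap for 3 of them (Igf1, Igfbp4 and Igfbp6), as for 25% of all genes.

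Igf1, the ligand made under growth hormone and estrogen control, was at 26.4, 41.0 and 36.2 FPKM in the OC ovaries and at 31.0, 37.0, 38.1 and 32.3 FPKM in the OT ovaries. In the uteruses it was at 107, 111 and 106 FPKM in OC and at 120.4, 70.9, 86.1 and 82.3 FPKM in OT. The lowest uterus lay above the highest ovary. The log2 difference was 1.51 (SE 0.12, 2.85-fold, limma adjusted p = 3.35e-07), and the exact sign-flip test over 7 mice gave p = 0.0156, the smallest it allows (adjusted over the 10 genes, 0.0391).

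Igfbp6, which binds IGF2 in preference to IGF1, had the largest difference in favour of the uterus among the 10 genes. It was at 109.8, 187 and 153 FPKM in the OC ovaries and 103, 149, 142 and 169 FPKM in the OT ovaries. The uteruses held 412, 446 and 427 FPKM in OC and 633, 655, 492 and 351 FPKM in OT. The tissues were again separate, with a log2 difference of 1.72 (SE 0.16, 3.30-fold, limma adjusted p = 1.5e-06, exact sign-flip p = 0.0156 over 7 mice). The ovaries with the least Hoxa10, OT1 at 0.572 FPKM and OC1 at 3.92 FPKM, had the lowest Igf1 and Igfbp6 of the 7 ovaries. The next ovary by Hoxa10, OT2 at 6.09 FPKM, was not low in either, with 37.0 FPKM of Igf1 and 149 FPKM of Igfbp6. Without the 4 ovaries above 10 FPKM of Hoxa10, the log2 difference was 1.70 for Igf1 and 2.01 for Igfbp6. That fit kept the ovaries OT1, OC1 and OT2, so OC1 was its only OC ovary. The part of tract RNA in the ovary levels was not tested.

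Igfbp2, a binding protein made by many epithelia and by the fetus, went the other way. It was at 31.9, 23.8 and 31.5 FPKM in the OC ovaries and 29.4, 42.0, 27.7 and 28.7 FPKM in the OT ovaries. The OC uteruses held 2.03, 2.16 and 4.002 FPKM, far under every ovary, whereas the OT uteruses held 30.1, 4.38, 17.4 and 6.89 FPKM. Only the uterus OT1 reached the level of the ovaries. The log2 difference between tissues was -2.45 (SE 0.35, limma adjusted p = 6.69e-05), and it was -3.42 in the OC libraries alone and -1.48 in the OT libraries alone. It was lower in the uterus in 6 of 7 mice (exact sign-flip p = 0.0312, adjusted 0.0521).

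Igfbp3, the main carrier of IGFs in serum, was at 17.9, 33.8 and 26.8 FPKM in the OC ovaries and 26.5, 31.7, 34.6 and 22.7 FPKM in the OT ovaries. In the uteruses it ranged from 23.8, 90.5 and 140.3 FPKM in OC to 74.8, 27.5, 85.3 and 170.4 FPKM in OT. The uteruses OC1 and OT2 lay within the range of the ovaries and the other 5 lay above it. The log2 difference of 1.39 (SE 0.41, limma adjusted p = 0.0125) lost the call without the mouse OC3 (log2 1.14, adjusted p = 0.0621), and in either treatment group alone (adjusted p = 0.0974 in OC and 0.059 in OT). It also lost it without the 4 ovaries above 10 FPKM of Hoxa10 (log2 1.63), a fit that left OC1 as the only OC ovary.

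Smaller differences were found for 3 other genes. Igfbp4, which holds IGFs until it is cut by PAPP-A, was at 90.8 to 139.9 FPKM in the ovaries and 144 to 187 FPKM in the uteruses, with no overlap and a log2 difference of 0.57 (SE 0.09, limma adjusted p = 0.000219). Igfbp5, a binding protein held in the matrix, differed by 0.36 (SE 0.14, limma adjusted p = 0.047) and Igf1r, the signalling receptor, by -0.53 (SE 0.21, limma adjusted p = 0.0482), both with overlapping ranges. With the mouse as a replicate block, the limma adjusted p was 0.0709 for Igfbp5 and 0.0687 for Igf1r. Igf1r was lower in the uterus in 7 of 7 mice, by log2 values from -0.06 to -2.12, the last in OT1, and without the mouse OT1 the difference was -0.31 (limma adjusted p = 0.0141). Over 18 alternatives the limma adjusted p ran from 0.0141 to 0.56 for Igf1r and from 0.0271 to 0.339 for Igfbp5.

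No difference was detected for Igf2 (log2 0.30, 95% interval -0.09 to 0.68), Igf2r (0.01, -0.24 to 0.25) or Igfbp7 (0.06, -0.12 to 0.24) by limma, with adjusted p of 0.18, 0.952 and 0.577. Under quantile normalization, which gives every library the same distribution, Igfbp7 was lower in the uterus (log2 -0.41, adjusted p = 0.000106). The level of Igfbp7 relative to the ovary therefore depended on the scaling, and its FPKM of 503 to 573 in the ovaries lay within 488 to 636 in the uteruses.

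**Figure D3:**
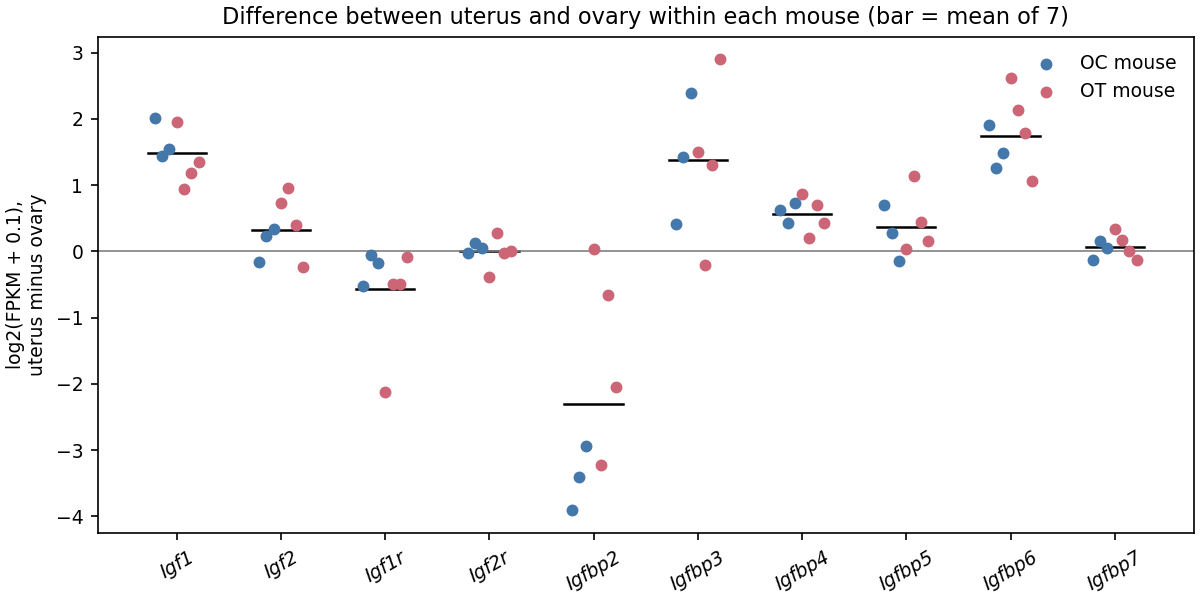
Difference of log2(FPKM + 0.1) between the uterus and the ovary with the same mouse label (y axis) for each of the 10 genes (x axis), with OC mice in blue, OT mice in red and a bar at the mean of 7 mice. All mice lie above 0 for Igf1, Igfbp4 and Igfbp6, all lie below 0 for Igf1r, and for Igfbp2 the mouse OT1 is near 0 at 0.03 while OC1 is at -3.91.

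The RNA-seq part of the study, which stood beside assays of oxidative stress and serum hormones, asked whether AMSC-CM changes gene expression in aged ovaries and uteruses. In the ovary, none of the 10 genes passed the cutoffs of a 2-fold change with an unadjusted p of at most 0.05, which 0.451% of 14415 tested genes passed by limma (0.368% as higher and 0.0832% as lower in OT). None of the 10 had an unadjusted p under 0.05 either, against 4.51% of all genes, and for none did the 3 OC and 4 OT ovaries fail to overlap, against 5.91% of all genes (2.78% with every OT ovary above and 3.13% with every OT ovary below). No gene of the whole table reached an adjusted p under 0.05 in the ovary by limma.

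The log2 fold changes in the ovary ran from -0.08 for Igfbp7 to 0.17 for Igfbp3, and their median of 0.07 stood against -0.01 over all tested genes. Igf1 was 34.5 ± 7.43 FPKM in OC (n = 3) and 34.6 ± 3.48 FPKM in OT (n = 4), with a log2 fold change of 0.02 and a 95% interval from -0.31 to 0.36. Igf1r was 31.2 ± 1.71 and 31.2 ± 3.56 FPKM, and its interval ran from -0.21 to 0.21. Igf2r and Igfbp7 had the narrowest intervals, -0.22 to 0.14 and -0.25 to 0.09. The intervals of all 10 genes in the ovary lay within a 2-fold change in either direction, the widest being that of Igf2 at -0.43 to 0.70.

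In the uterus 1 of the 10 genes, Igfbp2, passed the same cutoffs, which 2.9% of 14151 tested genes passed in either direction with 2.23% higher and 0.664% lower in OT. It was also the 1 gene of the 10 with an unadjusted limma p under 0.05, against 8.2% of all genes. No gene of the whole table reached an adjusted p under 0.05 in the uterus. Its values, given above, were 2.73 ± 1.10 FPKM in OC (n = 3) and 14.7 ± 11.7 FPKM in OT (n = 4). Every OT uterus lay above every OC uterus, as for 6.46% of all tested genes (5.48% had every OT uterus below, and 11.9% did not overlap in either direction), but the lowest OT value (4.38 FPKM, OT2) was close to the highest OC value (4.002 FPKM, OC3). The log2 fold change was 2.07 (SE 0.63, 95% interval 0.62 to 3.51), with an unadjusted limma p of 0.0109 and a Benjamini-Hochberg adjusted p of 0.539 over all genes. By exact permutation (two-sided) p = 0.0571, the smallest that 3 against 4 libraries allow, and 0.762 when adjusted over the 20 values of both tissues.

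The spread among the OT uteruses was wide. Igfbp2 was highest in OT1 (30.1 FPKM) and OT3 (17.4 FPKM). Leaving out each library in turn gave log2 fold changes from 1.60 to 2.51, all past the cutoffs, and leaving out both OT1 and OT3 gave 1.05 (unadjusted limma p of 0.0287, adjusted p = 0.694).

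Markers of other cell types also differed between the OC and OT uteruses. All 10 adipocyte markers were higher in every OT uterus than in every OC uterus, and their summed FPKM was 119 to 407 in OC and 1954 to 16875 in OT. The sum was highest in OT1 (16875 FPKM) and next in OT3 (3623 FPKM), the libraries with the most Igfbp2. Of 8 markers of stratified epithelium, 6 were higher in every OT uterus. Sums of the 8 were 2.72 to 13.1 FPKM in OC and 44.9 to 774 FPKM in OT. The highest was OT3, followed by OT4 (381 FPKM) and OT1 (227 FPKM). Of 6 B and plasma cell markers 5 were higher in every OT uterus, and of 6 smooth muscle markers 4. The B and plasma cell sum was 7.496 to 10.9 FPKM in OC and 16.5 to 115 FPKM in OT. It was highest in OT2, the OT uterus with the least Igfbp2 (4.38 FPKM). Of 10 uterine markers 4 were lower in every OT uterus. No defining marker of fat was at 0 in any group. With the mean adipocyte marker level as a covariate the log2 fold change of Igfbp2 was -0.60 (limma adjusted p = 0.906), although group and covariate do not overlap and cannot be told apart well in 7 libraries. The part of other tissue in the Igfbp2 difference was not tested.

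**Figure D4:**
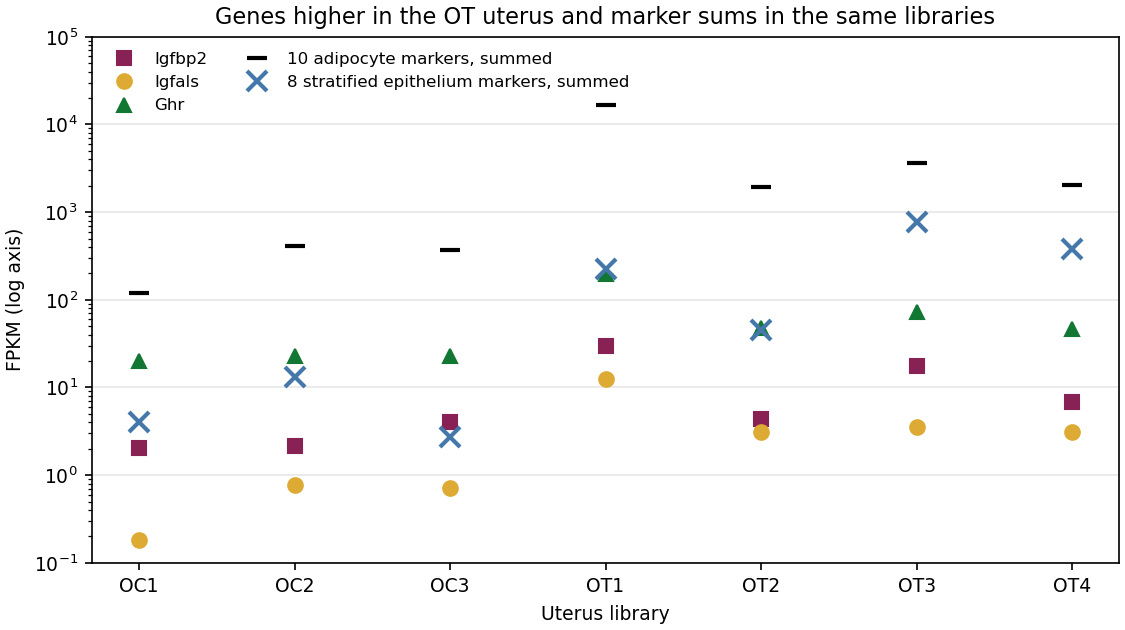
FPKM on a log axis of Igfbp2, Igfals and Ghr, and summed FPKM of 10 adipocyte and 8 stratified epithelium markers, in each of the 7 uterus libraries (x axis). Igfbp2 and the adipocyte sum are both highest in OT1 (30.1 and 16875 FPKM) and OT3 (17.4 and 3623 FPKM).

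The other ligands and receptors did not pass the cutoffs in the uterus. Igf1 was 108 ± 2.93 FPKM in OC and 89.9 ± 21.3 FPKM in OT, with 3 OT uteruses below all OC uteruses and OT1 above them. Its log2 fold change was -0.29 (SE 0.18, limma adjusted p = 0.627, exact permutation p = 0.229). Without OT1 it was -0.44 (unadjusted limma p of 0.0035, adjusted p = 0.276), still under 2-fold. Igf2 was at 2.198, 2.43 and 2.72 FPKM in OC and 4.82, 3.06, 3.59 and 2.499 FPKM in OT, where OT4 lay inside the OC range and OT1 was highest. The log2 fold change of Igf2 was 0.46 (SE 0.25, limma adjusted p = 0.625, exact permutation p = 0.114).

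Because Igf1 and Igf2 leaned in opposite directions, their ratio in the uterus was 38.9 to 48.8 in OC and 23.2 to 32.9 in OT, ranges that did not overlap. Among single tested genes, 11.9% likewise did not overlap between the OC and OT uteruses. In the ovary the ratio was 10.6 to 19.9 in OC and 10.8 to 24.3 in OT. This ratio was computed after the values were seen and was not tested.

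Igf1r was at 21.5, 28.3 and 29.1 FPKM in the OC uteruses and at 8.32, 20.4, 21.4 and 27.6 FPKM in the OT uteruses. OT1 was far below the other 6, and it was also the uterus with the most adipocyte marker RNA. The log2 fold change was -0.55 (SE 0.38, limma adjusted p = 0.639) with OT1 and -0.18 without it. Igf2r (log2 -0.13, 95% interval -0.60 to 0.35) was lowest in OT1 too, at 27.0 FPKM.

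Among the other binding proteins, Igfbp6 (log2 0.27), Igfbp5 (0.31), Igfbp4 (0.07), Igfbp3 (0.14) and Igfbp7 (-0.01) had unadjusted limma p from 0.237 to 0.946. Igfbp5 was at 118, 103 and 91.5 FPKM in OC and 112, 201, 117 and 103 FPKM in OT, with OT2 standing apart. Without OT2 the log2 fold change of Igfbp5 was 0.09. For Igfbp3 the direction turned with the library left out, from -0.61 without OC1 to 0.67 without OC3, and its 95% interval ran from -1.52 to 1.80, wider than a 2-fold change on both sides. Over the 10 genes the uterus values had a median of 0.10 on the log2 scale, against 0.01 over all tested genes.

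**Figure D5:**
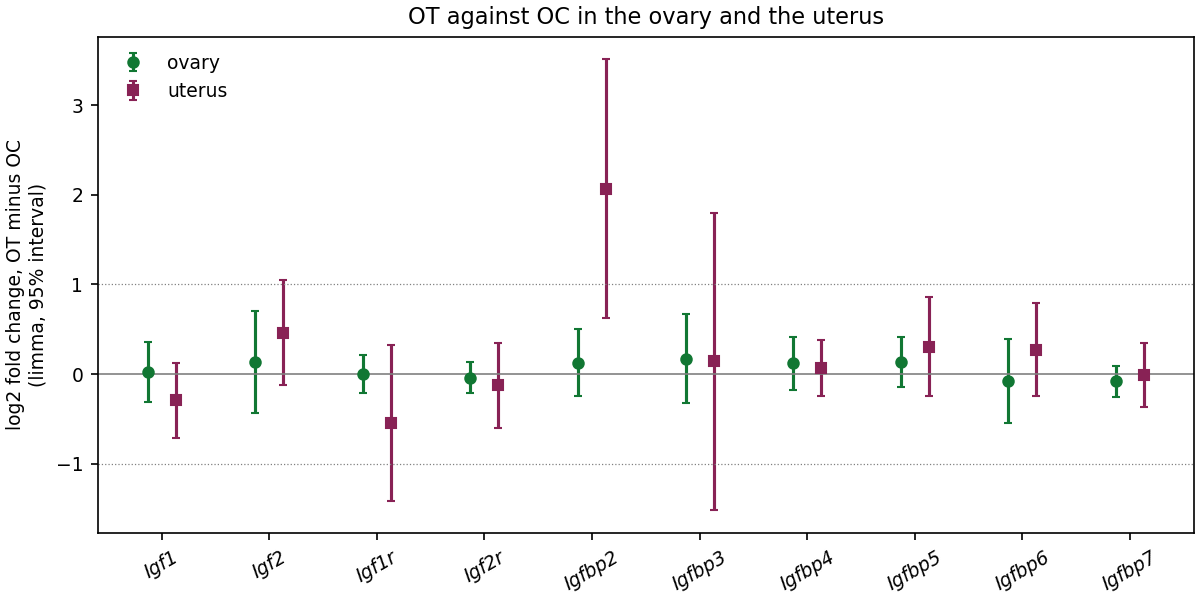
Log2 fold change of OT against OC (y axis, limma, with 95% intervals) for the 10 genes (x axis) in the ovary (green circles) and the uterus (purple squares), with dotted lines at a 2-fold change. Only the uterus interval of Igfbp2 (0.62 to 3.51) excludes 0, and all ovary intervals lie between the dotted lines.

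Whether the response differed between the tissues was tested as an interaction over all 14 libraries, in the same fit without a term for the mouse. None of the 10 genes reached an adjusted p under 0.05 by limma, as for 0% of the 14557 tested genes, and 1 of them (Igfbp2) had an unadjusted p under 0.05, against 5.12% of all genes. For Igfbp2 the log2 fold change in the uterus exceeded that in the ovary by 1.94 (SE 0.71, 95% interval 0.41 to 3.47, unadjusted limma p of 0.0167, adjusted p = 0.844).

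The system was also read through 37 further genes of IGF signalling, of which 29 passed the filter in each tissue. These genes were chosen with earlier results of these data known, so the counts below are descriptions and are not set against chance. In the uterus 4 of 29 passed the OT against OC cutoffs as higher (Igfals, Ghr, Irs3 and Adam28) and 0 as lower, against 2.23% and 0.664% of all tested genes, and 5 had an unadjusted limma p under 0.05, against 8.2%. In the ovary 2 of 29 passed as higher (Igfals and Irs3) and 0 as lower, against 0.368% and 0.0832% of all tested genes, and 4 had an unadjusted limma p under 0.05, against 4.51%. Igfals averaged 0.465 FPKM in the OC ovaries and 2.11 FPKM in the OT ovaries. It passed the filter of 0.5 FPKM only through the group where it was higher, which favours such a call. Both ovary calls were lost without OT1, without OT2 and with the adipocyte covariate, where the log2 fold change was -0.046 for Igfals and 0.29 for Irs3. The medians of the 29 log2 fold changes were 0.04 in the uterus and -0.02 in the ovary. No adjusted limma p was under 0.357 in the uterus or under 0.997 in the ovary.

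Igfals encodes the acid-labile subunit, which joins IGF and IGFBP3 or IGFBP5 in the large complex of serum. It was at 0.184, 0.781 and 0.706 FPKM in the OC uteruses and 12.6, 3.15, 3.58 and 3.12 FPKM in the OT uteruses. The groups did not overlap, and the log2 fold change was 3.00 (SE 0.60, limma adjusted p = 0.357, unadjusted 0.00106). In the ovaries it was at 0.464, 0.278 and 0.652 FPKM in OC and 3.69, 3.04, 0.407 and 1.31 FPKM in OT, a log2 fold change of 1.65 (SE 0.67, limma adjusted p = 0.997, unadjusted 0.0367). OT1 and OT2, the ovaries with the most Igfals, also had the highest adipocyte sums (2650 and 1917 FPKM, against 254 to 678 FPKM in the other 5). Igfals and Irs3 were among the genes the study had selected on these same libraries. Neither their direction nor the pathway counts that include them are independent evidence.

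Ghr, the growth hormone receptor, was at 19.9, 23.1 and 23.0 FPKM in the OC uteruses and 199, 47.9, 73.3 and 46.7 FPKM in the OT uteruses, without overlap (log2 fold change 1.78, SE 0.47, limma adjusted p = 0.485). Irs3, an insulin receptor substrate known from rodent fat, was 1.04 ± 0.202 FPKM in OC and 5.95 ± 6.09 FPKM in OT uteruses (log2 1.97, limma adjusted p = 0.55). Adam28, a metalloprotease able to cut IGFBP3, was 0.691 ± 0.272 and 3.24 ± 1.92 FPKM (log2 1.93, limma adjusted p = 0.485). OT1 was the highest uterus for Igfals, Ghr and Irs3, and OT3 for Adam28. With the adipocyte covariate the log2 fold changes of Igfals, Ghr and Irs3 in the uterus were 0.21, -0.36 and -0.65, and that of Adam28 was 1.64. Adam28 was at 2.07, 1.30, 5.51 and 4.08 FPKM in OT1 to OT4, the same order of libraries as the stratified epithelium sums of 227, 44.9, 774 and 381 FPKM. The part of adipose or epithelial RNA in these differences was not tested.

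Insr, the insulin receptor, did not pass in either tissue (log2 -0.09 in the ovary and -0.18 in the uterus). Pappa, the protease of IGFBP4, had log2 fold changes of -0.20 and 0.07, and its inhibitor Stc1 of -0.82 (limma adjusted p = 0.997) and 0.04. Between tissues, 4 of 29 genes were higher in the uterus (Jak2, Igf2bp2, Adam28 and Irs3) and 5 lower (Grb14, Pappa2, Cish, Stc1 and Pappa) at the cutoffs, which 10% and 9.59% of all tested genes passed. Pappa was 9.90 FPKM on average in the ovaries and 3.83 FPKM in the uteruses, lower in 7 of 7 mice (log2 -1.35, SE 0.16, limma adjusted p = 1.24e-05), while its substrate Igfbp4 was higher in the uterus. Stc1 was also lower in 7 of 7 mice (log2 -2.25, SE 0.24, limma adjusted p = 5.04e-06).

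The genes whose pattern was most like that of the ligands were sought over the 14 libraries after the mean of each tissue had been subtracted. Among 13653 genes, those nearest to Igf1 were Ebf1, Orc5 and Zfp354c, with root mean square differences of 0.117, 0.137 and 0.138 on the log2 scale, against a median of 0.329 over all genes. Nearest to Igf2 were Ogn (0.177), Ccdc85a (0.18) and Pstk (0.182), against a median of 0.398. A gene that did not vary within either tissue would lie at 0.230 from Igf1 and 0.326 from Igf2, so small distances partly reflect small variation. These are descriptions of 14 libraries that share mice, and no test was made.

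By the GENCODE M21 annotation of GRCm38, Igfbp2 (chr1:72824503-72852474, + strand) and Igfbp5 (chr1:72857932-72874884, - strand) lie tail to tail with 5457 bases between them. Igfbp5 lacked the group difference that Igfbp2 showed in the uterus, with 104 ± 13.5 FPKM in OC and 133 ± 45.5 FPKM in OT. Igf2 overlaps the protein-coding gene model Gm49394 on the same strand, so that the division of its reads is uncertain. Igfbp7 overlaps Polr2b on the opposite strand, which strand-specific counting separates.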

How the data were processed

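Ovary and uterus RNA-seq of 7 mice (3 OC, 4 OT) was analysed, with groups and replicates read from the sample labels. The authors deposited gene-level FPKM. Their processing used Skewer 0.2.2 for trimming, STAR 2.5 for alignment (mm10) and Cufflinks 2.2.1 with a strand-specific option for quantification. All 21853 identifiers matched GENCODE M21 (GRCm38), and 48 genes shared a symbol. Genes averaging 0.5 FPKM or more entered fits with limma 3.58.1 in R 4.3.3 (eBayes with a trend) on log2(FPKM + 0.1), so fold changes of low genes are understated. Fits were made per tissue for OT against OC, and over 14 libraries, without a term for the mouse, for the tissues and the interaction. The OT against OC cutoffs were those of the study, whose Cuffdiff test needs reads. Exact permutation tests (35 splits, or 128 sign patterns over 7 mice) were two-sided and took 2 times the smaller tail between groups. Separate mice are labelled, but no batch is, and p-values measure the spread between these libraries. Simulated data with known changes were used to test the limma scripts. Python 3.11.15 with numpy 2.4.6, pandas 2.3.3, scipy 1.17.1 and matplotlib 3.10.9 did the rest.

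The genes, the 37 pathway genes and the marker lists were chosen with earlier results of these data known. Named were the 10 genes, Igfals, Insr, Ghr, Pappa, Stc1, the pathway genes past the OT against OC cutoffs, and the 3 genes most like each ligand. Pathway genes named for the tissue difference, Igfbp1, Hoxa10 and the Igf1 to Igf2 ratio were picked with their values in view. Ovary and uterus libraries were paired by mouse label only in the sign-flip test, the differences per mouse and the fit with the mouse as a block. Their deviations from the group means correlated at r = 0.0740 to 0.254. The alternatives changed the pseudocount, the filter or the scaling, or used robust eBayes, a replicate block, 1 fit for both tissues, a marker covariate and leaving out libraries.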

Additional observations from a re-analysis of the deposited data

Results flagged for a closer look

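A library lay far from the others in 5 of 34 groups, each a single gene in the 4 OT libraries of a tissue. The measure was the gap to the nearest library divided by the whole range (Dixon's limit for 4 libraries). That limit flags about 1 in 20 groups of independent normal values, which these groups are not. They share libraries, FPKM was used without a log, and Irs3 and Adam28 were named because they passed the OT against OC cutoffs. The count is therefore not set against chance. In the OT ovaries, OT2 was lowest for Igf2 (0.831 of the range, 1.53 FPKM) and highest for Igfbp2 (0.882, 42.0 FPKM). In the OT uteruses, OT2 was highest for Igfbp5 (0.857, 201 FPKM), and OT1 was highest for Igfals (0.951, 12.6 FPKM) and Irs3 (0.854, 15.0 FPKM). OT1 was also the uterus with the highest adipocyte marker sum, at 16875 FPKM.

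The OT against OC log2 fold change of Igfbp2 was 1.94 higher in the uterus than in the ovary, with an unadjusted limma p of 0.0167. It did not pass with adjustment over all genes (adjusted p of 0.844). The 4 OT uteruses were all above the 3 OC uteruses, while the ovary groups overlapped. All 10 adipocyte markers were also higher in every OT uterus, and their part in this difference was not tested. Leaving out each mouse gave 1.44 to 2.53, and the unadjusted limma p ran from 0.00153 to 0.0727.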

How the results depend on the processing

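The 4 comparisons kept their counts of called IGF genes within 1.5 times under other pseudocounts, filters and scalings, robust eBayes and blocks. Over 45 single-gene results and 804 alternatives, 731 kept direction and call, 51 turned direction, 20 lost and 2 gained the call. Most of these results were not called in the main fit, where keeping the call means staying uncalled. Among called results, Igfbp2 in the uterus kept direction and call in 17 of 18 alternatives. In the ovary Igfals did so in 9 of 17 and Irs3 in 10 of 17. The cause of the changes below was not tested.

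With the adipocyte covariate, called genes in the uterus fell from 1 to 0 of the 10 and from 4 to 0 of the pathway, and pathway calls in the ovary from 2 to 0. Directions turned in the uterus for Igf2 (-0.39), Igf1r (0.66), Igf2r (0.54), Igfbp2 (-0.60), Igfbp3 (-1.40), Igfbp4 (-0.074), Igfbp6 (-0.085), Ghr (-0.36) and Irs3 (-0.65). They turned in the ovary for Igfbp2 (-0.077), Igfbp5 (-0.047), Igfbp6 (0.15), Igfals (-0.046) and Ghr (-0.15).

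Pathway calls in the ovary were 0 with a pseudocount of 1 or a filter at 2 FPKM, and 1 with the replicate block, with all 14 libraries in 1 fit or with uterine markers as a covariate. Igfbp6 in the ovary turned to 0.040 with the uterine covariate. Scaling turned Igf1r in the ovary (0.0033 at the 75th percentile, 0.0082 by quantiles), Igfbp4 in the uterus (-0.14 by quantiles) and, between tissues, Igf2r (-0.013 and -0.033) and Igfbp7 (-0.41 by quantiles). Igf2r between tissues was -0.034 in the OT libraries alone. Without OT1 and OT3, a choice made after seeing the data like the uterine covariate and the Hoxa10 limit, Igf2r was 0.14 and Igfbp4 -0.068 in the uterus.

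Same-numbered OC and OT mice share only a number (r = -0.0275 to 0.331 between their deviations). A fit with the replicate block and without OT4 gave 2.30 for Igfbp2 in the uterus (limma adjusted p = 0.267) and turned Igf1r in the ovary (0.026) and Igfbp3 (-0.26) and Igfbp7 (0.045) in the uterus. With the mouse as a block, 4 of 10 genes stayed called between tissues.

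Leaving out each library gave, in the ovary, 0 to 3 pathway calls (0 without OT1 or OT2, 1 without OC1, OC3 or OT4, 3 without OT3), Igf1 -0.16 to 0.16, Igf1r -0.079 to 0.039, Igfbp2 -0.013 to 0.20, Igfbp3 -0.077 to 0.38 and Igfbp6 -0.28 to 0.10. In the uterus it gave Igf2r -0.27 to 0.029, Igfbp3 -0.61 to 0.67, Igfbp7 -0.12 to 0.069, Pappa -0.078 to 0.16 and Stc1 -0.20 to 0.29, and between tissues Igf2r -0.043 to 0.068. Over all genes, calls in the ovary were 65 and became 18 with a pseudocount of 1, 159 with no filter, 25 with the filter at 2 FPKM, 103 with the replicate block and 137 without OT3. In the uterus they were 410 and became 259 with a pseudocount of 1, 260 without OT1 and OT3 and 666 with the replicate block. For the difference in response they went from 0 to 8 without OT2. Depth is unknown, so the precision of low genes such as Igfals rests on the spread between libraries.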

Other observations

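Igfbp1, a binding protein of liver and decidua, was listed at 0 FPKM in the uteruses OC1, OT1 and OT2 and at 1.38 in OC2, 1.60 in OC3, 0.268 in OT3 and 2.23 in OT4. Igfbp3 was lowest in 2 of the uteruses at 0, OC1 (23.8 FPKM) and OT2 (27.5 FPKM), and highest in OT4 (170.4 FPKM), while OT1 was at 74.8 FPKM. Estrous stage at collection was not given per mouse in the sources used here.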
